A study of Mus musculus with 8 samples.

Results

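UDP-glucuronosyltransferases (UGT), glutathione transferases (GST) and sulfotransferases (SULT) were followed in the ileum of mice given doxycycline to switch on a TNK1 transgene. They were taken by name: every array gene beginning with Ugt1 or Ugt2, with Gst, a class letter (a, m, p, t, k, o or z) and a number, or with Mgst or Sult and a number. This gave 52 genes of the 35715 names on the array, measured by 75 of its 55681 probes: 12 UGT genes, 23 GST genes, the membrane-bound MGST genes included, and 17 SULT genes. Each gene was read from its probe with the highest mean signal over the 8 arrays.

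These enzymes carry out the conjugation step of xenobiotic and hormone metabolism. UGTs attach glucuronic acid, GSTs attach glutathione and SULTs attach sulfate to steroids, bile acids, bilirubin, plant compounds, drugs and reactive lipids, which makes them more soluble in water and lets transporters carry them out of the cell. The lining of the small intestine is a known site of this chemistry, since it meets food compounds and oral drugs before the liver does.

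All mice were female and, per their strain label, carried rtTA, an activator that needs doxycycline, on 1 allele of the broadly expressed Rosa26 locus and a Myc-tagged Tnk1 transgene at Hprt. In the treated group doxycycline was injected into the abdomen at 50 µg per g of body weight in 100 µl, and in the control group 100 µl of 0.9% NaCl (saline) was injected. Ileum RNA was taken 24 hours later, with 4 arrays per group. The saline samples carry the same transgenic strain label but are titled as wild type. No samples of doxycycline-injected mice lacking the transgene were among them, so the drug and the transgene cannot be told apart. Whether each array is a separate animal is not stated in the labels, and p-values therefore rest on the spread among these arrays, which may be technical.

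Levels below are the log2 processed signal of a probe minus the 75th percentile of its array, so that a difference of 1 is 2-fold, and no probe's level can be set against another's. A Tnk1 probe toward the 5′ side of the gene was 6.89-fold higher with doxycycline (limma adjusted p = 4.76e-04), and Hprt, named in the strain label as the site of the transgene, was 64.3-fold higher (adjusted p = 4.54e-05). The brightest Tnk1 probe differed by -0.46 (adjusted p = 0.140), and induction and a difference in genotype cannot be told apart by these values. The doxycycline arrays fill a row of the slide and the saline arrays the other, which means that a row effect and a treatment effect cannot be told apart. Between 54.7% and 57.0% of probes were well above background on the doxycycline arrays and between 39.6% and 43.1% on the saline arrays. The 20175 probes that were above background nowhere had median levels of -7.26 to -6.88 with doxycycline and -5.41 to -4.92 with saline, so a probe without signal reads lower on the doxycycline arrays.

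Marker genes of several cell types also differed between the groups. Over all 21362 tested genes, 8.14% were called lower and 5.95% higher at a limma adjusted p under 0.05. These shares are the background of each list here. At an unadjusted limma p under 0.05, 3650 of the 21362 were lower and 3070 higher. Markers of absorptive enterocytes, in which intestinal conjugation is known to take place, held 1 higher and 0 lower of 18 tested (3 and 2 at an unadjusted limma p under 0.05; median log2 difference 0.10; mean level 4.46 to 5.10 with doxycycline and 3.53 to 5.06 with saline), and those of ileal enterocytes held 0 called of 6 (1 higher and 1 lower at an unadjusted p under 0.05; median -0.11; 4.38 to 6.0 against 4.43 to 6.0). Goblet cell markers were lower for 8 of 9 (median -1.77; 4.25 to 4.96 against 6.22 to 6.58). Lower calls were also held by 6 of 9 enteroendocrine markers (median -1.45; 0.68 to 1.86 against 2.14 to 2.88), 2 of 3 tuft cell markers (median -0.78; -1.53 to -0.83 against -0.81 to 0.06) and 4 of 9 stem and cycling crypt cell markers (median -0.53; 1.83 to 2.09 against 2.33 to 2.96). The 4 were the stem cell genes Lgr5, Ascl2, Olfm4 and Axin2, at -1.51, -2.40, -1.69 and -1.59, whereas the proliferation genes Mki67, Top2a, Ccnb1 and Pcna lay between 0.0011 and 0.45 and were not called. Of the hepatocyte markers, which would show liver RNA, 2 of 6 tested were lower (median -0.41; -0.71 to 0.70 against -0.52 to 1.98) and albumin did not pass the filter on dim probes. Of the immune lists, 3 of 8 macrophage markers were higher and 1 lower (median 0.86), 2 of 5 neutrophil markers were higher (median 0.80) and 2 of 9 B and plasma cell markers were lower (median 0.42). T cell markers held 0 called of 8 and mast cell markers 1 lower of 5. Paneth cell markers held 0 called of 6 (median -0.18; 5.94 to 6.25 against 6.12 to 6.37). Adipocyte markers held 0 called of 4 (median -2.35), with mean levels that varied widely with doxycycline (-2.83 to 3.84 against 2.58 to 4.80). Endothelium and fibroblast markers held 1 higher of 6 each, and those of smooth muscle, enteric neurons and glia, and pancreatic acinar cells held 0 called. In tissue RNA, fewer cells of a type and less RNA per cell cannot be told apart, and the part of these cell types in the results below was not tested.

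Many of the conjugating genes were lower with doxycycline and a single gene, Gsta2, was higher. Of the 39 tested members, 20 were lower and 1 was higher at a limma adjusted p under 0.05, where 8.14% of all 21362 tested genes were lower and 5.95% were higher. Lower members thus made up 51.3%, with a median log2 difference of -0.49 over the tested members against 0.01 over all genes. The fall was 2-fold or more for 14 of the 20. The 4 doxycycline values lay on a single side of the 4 saline values for each of the 21 called members, below them for 20 and above them for Gsta2, and above them also for the uncalled Sult5a1 (over all genes, 13.1% lay below and 8.82% above). Their exact two-sided permutation p was 0.0286, the smallest that 4 against 4 can give. Among the 34 members well above background on 8 of 8 arrays, 19 were lower and 1 higher, with a median of -0.72 (10.1% lower and a median of -0.06 over all such genes).

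By superfamily, 7 of 10 tested UGT genes were lower and 0 higher (median -1.31; 0 higher also at an unadjusted limma p under 0.05), 10 of 22 GST genes were lower and 1 higher (median -0.49), and 3 of 7 SULT genes were lower and 0 higher (median -0.28; 2 higher at an unadjusted p under 0.05). At that unadjusted threshold 3650 of all 21362 tested genes were lower and 3070 higher. The call of 12 of the 21 members held under every alternative processing and with any array left out: Ugt1a6b, Ugt2b5, Ugt2b34, Ugt2b36, Ugt2b37, Ugt2b38, Gstk1, Gstm3, Gstt1, Gstt3, Mgst3 and Sult1c2. No called member changed sign. The count of lower members was 12 without doxycycline 3, 12 without doxycycline 4, 12 without saline 3 and 13 without saline 1, where the counts over all genes were 827, 900, 735 and 759 in place of 1739.

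**Figure D1:**
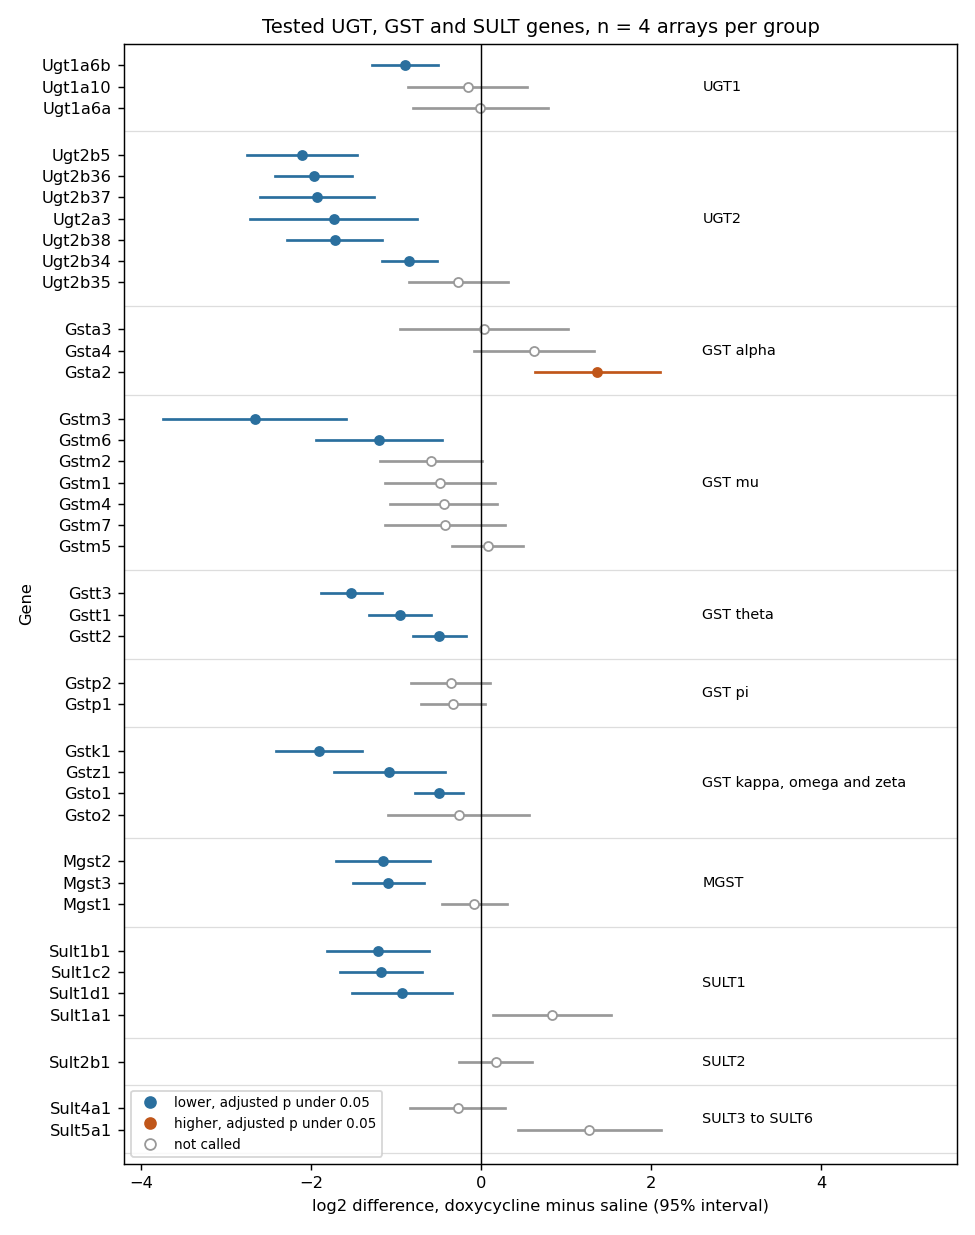
Log2 difference, doxycycline minus saline, of the 39 tested members on the x axis, grouped by gene family on the y axis (points: limma estimate; bars: 95% interval; n = 4 arrays per group). Of the 10 UGT genes 7 are called lower, whereas Gsta2 at 1.37 is the only member called higher.

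The lower UGT genes were mainly those of the UGT2 family, whose enzymes glucuronidate steroids, fatty acids and drugs. Several of its members are close relatives, so the letters their probes read are shown here. The probes of Ugt2b5 and Ugt2b37 match in 46 of 55 aligned letters (83.6%), the only tested pair of members at 75% or more, and capitals mark the letters in which they differ. The Ugt2b36 probe has no position in the array's mm9 annotation, and its accessions list Ugt2b37 as well. Positions of the other 3 are chr5:87554155-87554214 (Ugt2b5), chr5:87669707-87669766 (Ugt2b37) and chr5:87839345-87839404 (Ugt2b38), all on the minus strand of mm9.
Ugt2b5 probe: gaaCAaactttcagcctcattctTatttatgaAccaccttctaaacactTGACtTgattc
Ugt2b37 probe: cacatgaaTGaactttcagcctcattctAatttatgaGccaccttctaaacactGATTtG
Ugt2b36 probe: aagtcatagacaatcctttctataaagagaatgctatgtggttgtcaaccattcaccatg
Ugt2b38 probe: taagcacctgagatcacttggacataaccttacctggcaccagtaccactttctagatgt

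Ugt2b5 read -1.20, -0.97, -2.15 and -1.23 on doxycycline arrays 1 to 4 and 0.51, 0.33, 1.03 and 1.01 on saline arrays 1 to 4. Every doxycycline value was below 0 and every saline value above it. The gene was 4.31-fold lower (95% interval 2.75 to 6.74; log2 difference -2.11, SE 0.285, limma adjusted p = 0.00261). Its near match Ugt2b37 read -2.02, -2.30, -2.89 and -2.71 with doxycycline and -0.76, -1.19, -0.05 and -0.17 with saline. The groups stood apart here too, by 3.83-fold (2.40 to 6.10; log2 difference -1.94, SE 0.297, adjusted p = 0.00453), and the letters the probes share leave it uncertain how far their signals are separate.

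The probe named for Ugt2b36 had the smallest p of all the members. It also lists Ugt2b37, so how far its value belongs to Ugt2b36 alone is uncertain. The probe read -2.32, -2.56, -3.03 and -2.72 with doxycycline and -0.76, -0.98, -0.39 and -0.62 with saline. The highest doxycycline array was more than 1 log2 unit under the lowest saline array, and the signal was 3.92-fold lower (2.87 to 5.36; log2 difference -1.97, SE 0.199, adjusted p = 7.17e-04). With normexp background correction and quantile normalization, the folds of Ugt2b36 and Ugt2b37 shrank to 2.40 and 2.05 (adjusted p = 3.22e-04 and 0.0132). Ugt2b38 was at -0.68 ± 0.34 (SD, n = 4) with doxycycline and 1.05 ± 0.40 (SD, n = 4) with saline, 3.31-fold lower (log2 difference -1.73, SE 0.246, adjusted p = 0.00328). Ugt2b34, a bright probe of the family, was at 4.88 ± 0.17 against 5.73 ± 0.09, 1.80-fold lower (log2 difference -0.85, SE 0.144, adjusted p = 0.00716).

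Ugt2a3 was called lower on dim signal. It read -3.88, -4.25, -4.65 and -5.23 with doxycycline and -3.66, -2.95, -1.64 and -2.81 with saline, with 3 of 4 doxycycline arrays and 1 of 4 saline arrays well above background. The nearest values of the groups, doxycycline 1 and saline 1, were close. The fitted fold was 3.33 (log2 difference -1.74, SE 0.434, adjusted p = 0.0316). It was 1.29 with normexp background (adjusted p = 0.169) and 1.23 with a common floor for dim values (adjusted p = 0.563), and the call was also lost with array weights, without doxycycline 2, 3 or 4, without saline 3 or 4, and without saline 2 and 4 together. Ugt2b35 differed by -0.27 (95% interval -0.86 to 0.31, adjusted p = 0.511), and Ugt2b1 and Ugt2a1 were not well above background on any array.

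In the UGT1 family the array separates the genes poorly. The genes of the Ugt1a locus are known to share their downstream exons and to differ in the exon they start from. The brightest probe named for Ugt1a6b, an enzyme of simple phenols, lies at chr1:90115493-90115552 on the plus strand, and its accessions list Ugt1a10, Ugt1a6a, Ugt1a6b and Ugt1a7c. A second Ugt1a6b probe, at chr1:90004249-90004308, lists Ugt1a6b alone. They are shown because the value below belongs to the shared sequence and not to a single gene.
Ugt1a6b probe, shared: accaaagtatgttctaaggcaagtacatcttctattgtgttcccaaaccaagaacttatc
Ugt1a6b second probe: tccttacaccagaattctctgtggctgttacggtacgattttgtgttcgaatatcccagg

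The shared probe read 5.12, 4.68, 5.04 and 5.05 with doxycycline and 5.91, 5.56, 6.07 and 5.96 with saline. All doxycycline arrays were below all saline arrays. The difference was 1.87-fold (1.43 to 2.44; log2 difference -0.90, SE 0.171, adjusted p = 0.0115). The second probe rose well above background on 2 of the doxycycline arrays only and was not tested. The probes named for Ugt1a10 and Ugt1a6a, which also list other Ugt1a genes, differed by -0.16 (-0.86 to 0.54, adjusted p = 0.761) and -0.01 (-0.81 to 0.78, adjusted p = 0.986), the latter well above background on 1 of 4 saline arrays. The Ugt1a6a probe lies near the shared probe, at chr1:90116514-90116573. It lists Ugt1a1, Ugt1a10, Ugt1a6a and Ugt1a7c, of which all but Ugt1a1 are also listed by the shared probe. The fall of the shared probe was thus not seen on this dimmer probe.

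**Figure D2:**
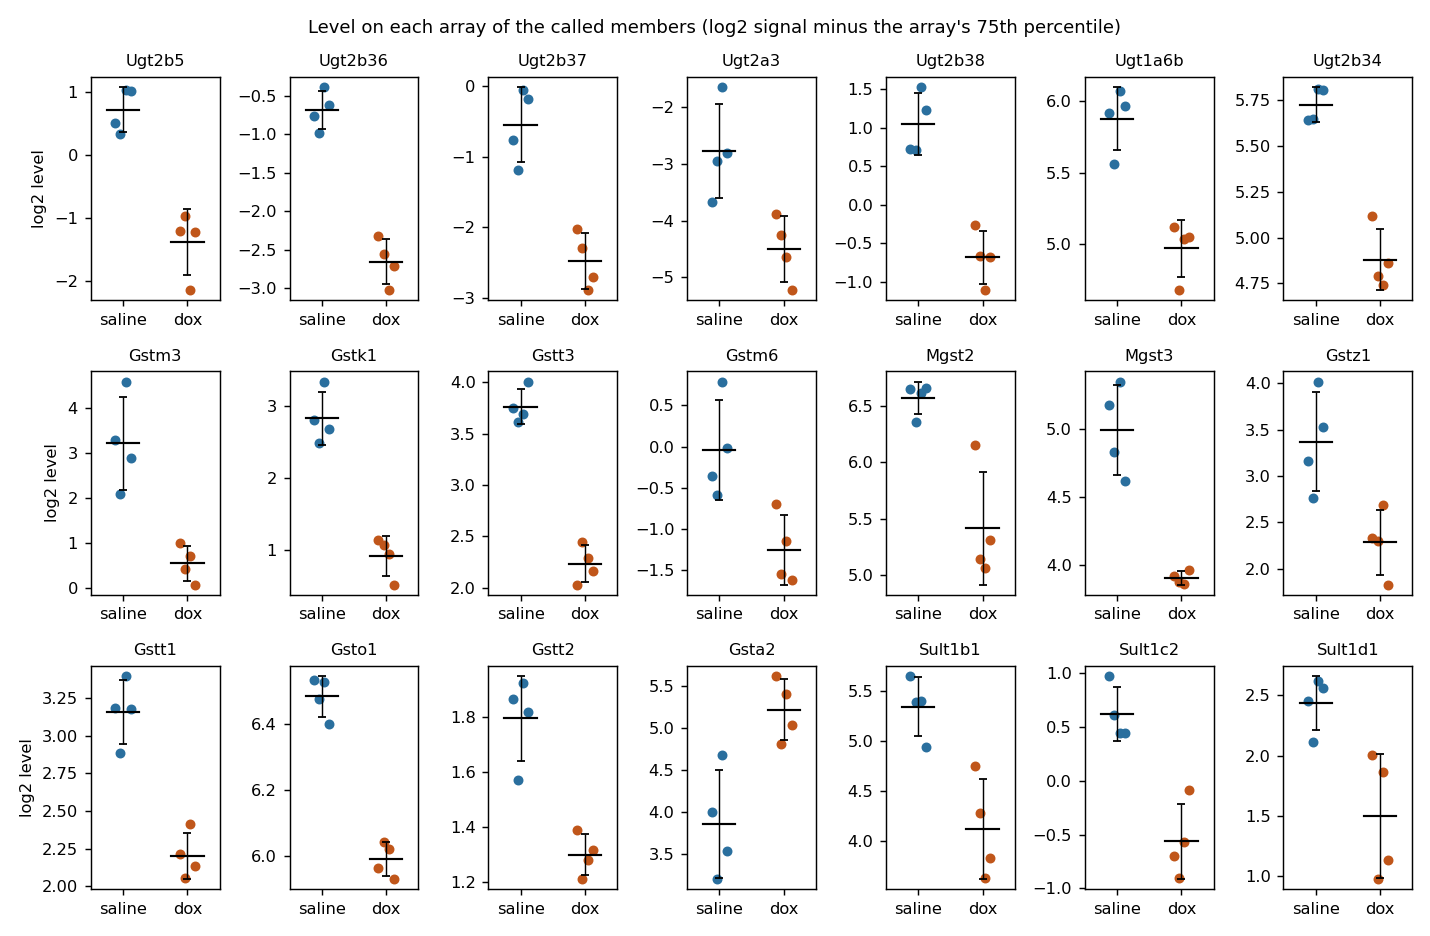
Level on each array (y axis, log2 signal minus the array's 75th percentile, with a scale of its own in each panel) of the 21 called members by group (x axis; dox, doxycycline). Points are arrays, horizontal lines are means and bars are SD (n = 4); in every panel the groups do not overlap, and in the Gsta2 panel alone the doxycycline arrays are the higher ones.

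The called Ugt2 genes with a mapped probe lie in a stretch of chromosome 5 that also holds 3 Sult1 genes. From the Ugt2b34 probe to the Sult1e1 probe (chr5:87318849-88005246, mm9) the array places 11 members, of which 8 were tested and 7 were lower, with a median log2 difference of -1.47. The 3 other tested names within the stretch differed by -0.44, -0.07 and 0.21 and were not called (adjusted p = 0.116, 0.780 and 0.706). In the 500 kb on each side 4 of 25 names were tested, of which Tmprss11f, a serine protease gene, was higher by 1.42 (adjusted p = 0.00602) and the others were not called. The Ugt2 genes are relatives, so they are not independent cases. Of the other families that lie together, 3 of 3 tested Gstt genes on chromosome 10 were lower, with 5 of 24 tested neighbours lower within 500 kb, and 2 of 7 Gstm genes on chromosome 3 were lower, with 4 of 22 neighbours. The value used for Gstm1 came from a probe that the array's annotation places on chromosome 5.

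**Figure D3:**
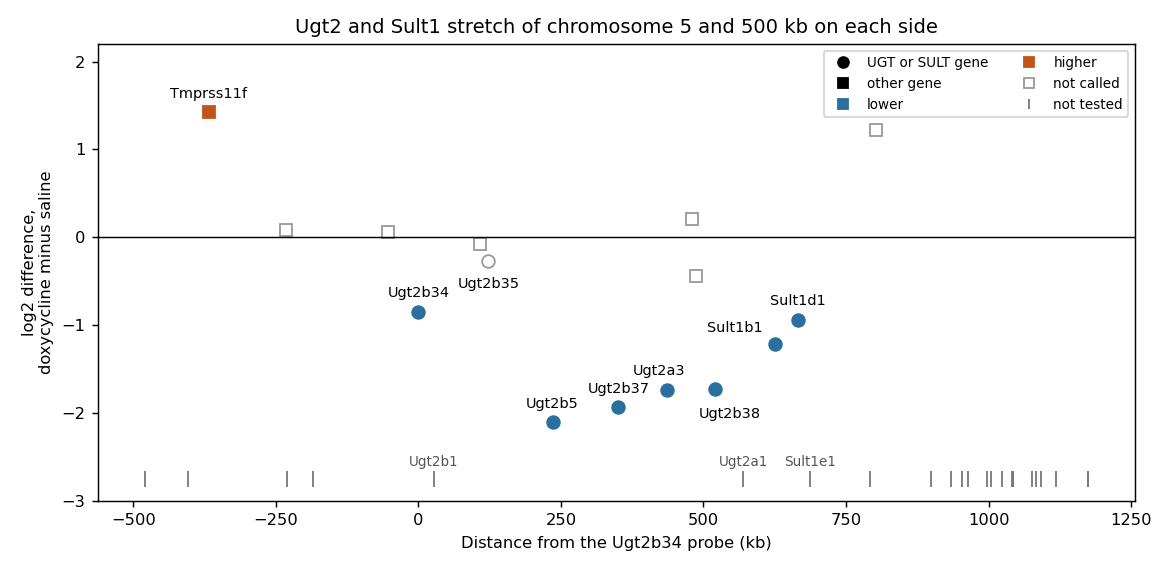
Log2 difference, doxycycline minus saline (y axis), of array genes by distance in kb from the Ugt2b34 probe (x axis), for the Ugt2 and Sult1 stretch of chromosome 5 and 500 kb on each side; circles are UGT or SULT genes, squares other genes, filled symbols called genes and ticks genes that were not tested. The 7 called members lie between -2.11 and -0.85, and the tested other genes within the stretch lie between -0.44 and 0.21.

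The promoters of 4 of the 5 lower Ugt2b genes, a choice made after their values were seen, were set side by side, and the promoter of Ugt2b34, also lower, does not hold the run described next. RefSeq tables (GRCm38.p6) give a promoter, from 250 bases before to 50 bases after the start, for 45 of the 52 members. Those of Ugt2b37 and Ugt2b38 match in 94.8% of aligned letters, Ugt2b5 matches them in 89.1% and 90.0%, and Ugt2b36 matches the other 3 in 69.8% to 70.6%. These 4 hold the same run of 22 letters just before the start, which no other of the 32851 promoters in the table holds on either strand. The run was taken as the longest that these 4 share, and one of that length is seldom met elsewhere by chance. Its absence elsewhere therefore shows nothing particular to lower genes. The run is in capitals below and spans -28 to -7 in Ugt2b5, -31 to -10 in Ugt2b36 and Ugt2b38, and -45 to -24 in Ugt2b37. The promoters lie on the minus strand at chr5:87140291-87140590 (Ugt2b5), chr5:87092506-87092805 (Ugt2b36), chr5:87254739-87255038 (Ugt2b37) and chr5:87424154-87424453 (Ugt2b38).
Ugt2b5 promoter: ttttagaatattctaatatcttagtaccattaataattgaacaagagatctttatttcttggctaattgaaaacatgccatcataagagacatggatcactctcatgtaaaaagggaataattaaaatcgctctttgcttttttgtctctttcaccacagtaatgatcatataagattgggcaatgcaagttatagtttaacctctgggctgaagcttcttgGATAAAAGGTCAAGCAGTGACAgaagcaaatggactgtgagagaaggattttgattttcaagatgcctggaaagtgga
Ugt2b36 promoter: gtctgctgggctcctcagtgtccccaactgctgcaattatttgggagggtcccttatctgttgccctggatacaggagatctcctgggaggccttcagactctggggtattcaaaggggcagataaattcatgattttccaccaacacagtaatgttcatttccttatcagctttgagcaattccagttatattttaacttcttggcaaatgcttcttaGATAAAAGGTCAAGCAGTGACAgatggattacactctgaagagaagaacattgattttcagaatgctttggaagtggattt
Ugt2b37 promoter: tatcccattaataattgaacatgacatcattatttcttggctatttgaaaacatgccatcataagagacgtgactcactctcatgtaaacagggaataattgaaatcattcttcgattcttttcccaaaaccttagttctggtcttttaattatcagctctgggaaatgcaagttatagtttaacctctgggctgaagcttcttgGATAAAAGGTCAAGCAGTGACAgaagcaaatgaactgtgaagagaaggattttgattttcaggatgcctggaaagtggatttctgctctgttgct
Ugt2b38 promoter: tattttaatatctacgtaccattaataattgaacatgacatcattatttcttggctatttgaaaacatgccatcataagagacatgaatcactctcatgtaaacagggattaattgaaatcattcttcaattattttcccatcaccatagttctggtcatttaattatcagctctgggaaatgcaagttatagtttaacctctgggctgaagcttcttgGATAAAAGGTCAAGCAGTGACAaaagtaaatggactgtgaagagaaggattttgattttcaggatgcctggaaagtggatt

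The match is a description of related genes and says nothing of what binds there. In addition, 3 short motifs known from conjugating genes were searched on both strands, and a promoter counted for every motif it held. The antioxidant response element core TGACNNNGC was in 0 of 23 promoters of lower members, in 4 of 22 of members tested and not called, and in 12.4% of all promoters. The xenobiotic response element core GCGTG was in 3 of 23, 6 of 22 and 32.4%, and the HNF1 core GTTAAT in 2 of 23, 4 of 22 and 7.10%. The 23 promoters belong to 18 genes and the 22 to 16 genes. Some of them overlap or are near copies, so they are not independent cases. A motif that was not found says only that its letters are not in this window.

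The alpha class of GST, which is known to conjugate products of lipid peroxidation, held the only member called higher, Gsta2. Its probe lies at chr9:78178856-78178915 on the minus strand of mm9, and its promoter, at chr9:78347096-78347395 of GRCm38.p6, holds GCGTG from -7, shown in capitals.
Gsta2 probe: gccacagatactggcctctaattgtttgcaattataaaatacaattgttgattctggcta
Gsta2 promoter: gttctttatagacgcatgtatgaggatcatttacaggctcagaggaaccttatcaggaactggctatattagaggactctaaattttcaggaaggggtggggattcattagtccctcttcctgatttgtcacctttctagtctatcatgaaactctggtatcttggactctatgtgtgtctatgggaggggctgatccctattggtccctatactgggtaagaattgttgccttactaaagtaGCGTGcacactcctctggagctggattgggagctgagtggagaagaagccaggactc

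Gsta2 read 5.62, 4.81, 5.41 and 5.04 with doxycycline and 4.0, 3.20, 4.68 and 3.53 with saline. Doxycycline 2, the lowest of its group, was just above saline 3, the highest of the other. The gene was 2.58-fold higher (1.54 to 4.30; log2 difference 1.37, SE 0.326, adjusted p = 0.0270). A common floor ended its call, as did leaving out doxycycline 1, 3 or 4, saline 1 or 4, or saline 2 and 4 together (highest adjusted p 0.111). Gsta4, which acts on the lipid aldehyde 4-hydroxynonenal, differed by 0.62 (-0.09 to 1.33, adjusted p = 0.213), with 10 spots per array that varied by an SD of 0.139 (median over arrays), and Gsta3 by 0.03 (-0.96 to 1.02, adjusted p = 0.970).

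Of the 7 mu class genes, which conjugate epoxides and other electrophiles, 2 were lower. Gstm3 had the largest difference of all members, and its pair of probes did not give the same size, so both are shown. The brighter lies at the gene's cluster, at chr3:107766615-107766674 on the minus strand, and the other is placed by the array's annotation at chr10:34618363-34618422, away from it.
Gstm3 probe: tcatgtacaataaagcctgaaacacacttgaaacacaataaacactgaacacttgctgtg
Gstm3 second probe: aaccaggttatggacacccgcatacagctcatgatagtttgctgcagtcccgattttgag

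On the brighter probe Gstm3 read 1.00, 0.41, 0.70 and 0.07 with doxycycline and 3.29, 2.09, 4.59 and 2.88 with saline. The saline arrays spread over more than 2 log2 units and still lay above every doxycycline array. The gene was 6.36-fold lower (3.02 to 13.4; log2 difference -2.67, SE 0.475, adjusted p = 0.00872). The second probe differed by -1.13 (SE 0.394, adjusted p = 0.0917 over all kept probes), the mean of both probes gave 3.73-fold (adjusted p = 0.0211), and without saline 2 and 4 together the brighter probe gave 10.5-fold (adjusted p = 0.00855).

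Gstm6 read -0.70, -1.54, -1.14 and -1.61 with doxycycline and -0.36, -0.59, 0.79 and -0.02 with saline. The groups stood close, with doxycycline 1 just under saline 2. The gene was 2.30-fold lower (1.38 to 3.84; log2 difference -1.20, SE 0.325, adjusted p = 0.0406), a call lost with a common floor, without doxycycline 2, 3 or 4, without saline 1, 3 or 4, and without saline 2 and 4 together (highest adjusted p over all settings 0.106). Its other 2 kept probes differed by -1.17 (adjusted p = 0.0300) and -0.87 (adjusted p = 0.103) in the fit of every probe, in which 6.91% of 28626 probes were lower. Gstm1, Gstm2 and Gstm4 differed by -0.48, -0.59 and -0.44 (adjusted p = 0.282, 0.166 and 0.310), Gstm5 by 0.08 (-0.34 to 0.49), and Gstm7 was well above background on doxycycline arrays only, by a difference of -0.43 that gives no fold. The array's annotation places the chosen Gstm1 probe at chr5:117082490-117082549, away from the cluster. The Gstm1 probe at the cluster differed by -0.35 (adjusted p = 0.394 over all kept probes). Genes of the mu cluster are near copies, so their values are uncertain. Their chosen probes match no other member's probe in more than 52.5% of letters. Probes were compared only with probes and not with the transcripts of other members, so this does not show that their signals are separate.

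**Figure D4:**
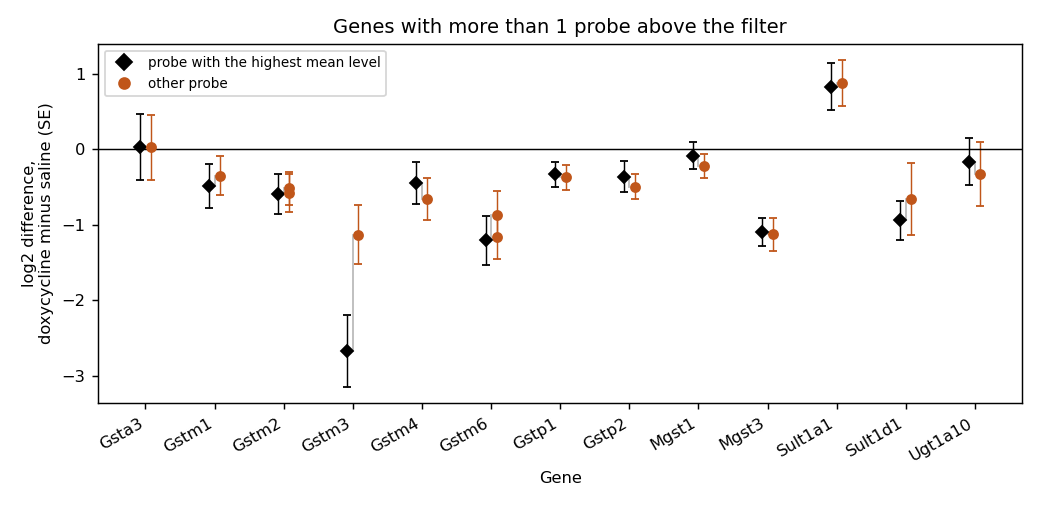
Log2 difference, doxycycline minus saline (y axis; bars are SE, n = 4 arrays per group), of every kept probe for the members with more than 1 kept probe (x axis). Black diamonds are the brightest probes and orange circles the others; apart from Gstm3, at -2.67 and -1.13, the probes of a gene lie close together.

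All 3 tested theta class genes, whose enzymes act on small halogenated compounds, were lower. The Gstt3 probe (chr10:75236966-75237025, minus strand, mm9) read 2.03, 2.45, 2.29 and 2.16 with doxycycline and 3.75, 3.61, 3.69 and 4.01 with saline. Within each group the arrays lay within less than 1 log2 unit, and the groups were more than 1 unit apart. Gstt3 was 2.89-fold lower (2.25 to 3.69; log2 difference -1.53, SE 0.157, adjusted p = 7.75e-04). Gstt1 read 2.21, 2.05, 2.41 and 2.14 with doxycycline and 3.19, 2.88, 3.40 and 3.18 with saline, again without overlap and 1.94-fold lower (log2 difference -0.96, SE 0.161, adjusted p = 0.00689). Gstt2 was at 1.30 ± 0.07 against 1.79 ± 0.15 (SD, n = 4 each), 1.41-fold lower (log2 difference -0.49, SE 0.139, adjusted p = 0.0470). Gstt4 was well above background on 1 of 8 arrays and was not tested.

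Among the remaining soluble classes, Gstk1 had the largest difference. This kappa class enzyme is known from mitochondria and peroxisomes, and its probe lies at chr6:42200381-42200440 on the plus strand. It read 1.13, 1.06, 0.95 and 0.52 with doxycycline and 2.81, 2.48, 3.34 and 2.68 with saline. The saline arrays were all above 2 and the doxycycline arrays all near or under 1, a 3.76-fold difference (2.65 to 5.35; log2 difference -1.91, SE 0.224, adjusted p = 0.00133). Gstz1, the maleylacetoacetate isomerase of tyrosine breakdown, read 2.34, 2.30, 2.69 and 1.83 with doxycycline and 3.17, 2.76, 4.02 and 3.53 with saline. Doxycycline 3 and saline 2 nearly met, and Gstz1 was 2.12-fold lower (1.35 to 3.33; log2 difference -1.08, SE 0.288, adjusted p = 0.0391).

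Gsto1, an omega class enzyme that reduces mixed disulfides, was steady within groups, at 5.99 ± 0.05 with doxycycline and 6.48 ± 0.06 with saline (1.41-fold lower, SE 0.124 on the log2 scale, adjusted p = 0.0322). Gsto2 was well above background on doxycycline arrays only and differed by -0.27, which gives no fold. The pi class genes Gstp1 and Gstp2 differed by -0.33 (-0.71 to 0.04, adjusted p = 0.208) and -0.36 (-0.83 to 0.10, adjusted p = 0.263). Gsto1 lost its call without any of 6 single arrays (all but doxycycline 1 and saline 4), Gstt2 without any of 7 (all but saline 2) and Gstz1 without any of 7 (all but saline 2), with highest adjusted p of 0.101, 0.137 and 0.0998. Gsto1 and Gstt2 also lost it with normexp background and with quantile normalization, Gstt2 with the deposited values and with a median in place of the 75th percentile, Gstz1 with a common floor, and all 3 without saline 2 and 4 together.

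Of the membrane-bound MGST enzymes, which are related to leukotriene C4 synthase, Mgst2 and Mgst3 were lower and Mgst1 was not called. The Mgst3 probe (chr1:169303928-169303987, minus strand) read 3.92, 3.87, 3.86 and 3.97 with doxycycline and 5.18, 4.83, 5.35 and 4.62 with saline. The doxycycline arrays lay nearly on a single value and the saline arrays were all higher. Mgst3 was 2.13-fold lower (1.60 to 2.84; log2 difference -1.09, SE 0.182, adjusted p = 0.00660), and a second probe differed by -1.12 (adjusted p = 0.0140). Mgst2 read 6.15, 5.14, 5.06 and 5.31 with doxycycline and 6.66, 6.35, 6.62 and 6.66 with saline. Doxycycline 1 stood near the saline arrays and the other doxycycline arrays lay about 1 unit lower. Mgst2 was 2.23-fold lower (1.52 to 3.28; log2 difference -1.16, SE 0.245, adjusted p = 0.0179), with its call lost without doxycycline 3 or 4, without saline 1 or 3, and without saline 2 and 4 together (highest adjusted p 0.0624). Mgst1 differed by -0.08 (-0.47 to 0.30, adjusted p = 0.781).

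Among the sulfotransferases, 3 of the 4 tested SULT1 genes were lower. Sult1b1, which sulfates phenols and thyroid hormones, read 4.75, 4.28, 3.63 and 3.83 with doxycycline and 5.65, 5.39, 5.39 and 4.94 with saline. All doxycycline arrays were under all saline arrays, and the gene was 2.33-fold lower (1.53 to 3.53; log2 difference -1.22, SE 0.266, adjusted p = 0.0198). The Sult1c2 probe (chr17:53969205-53969264, minus strand) read -0.70, -0.90, -0.56 and -0.08 with doxycycline and 0.98, 0.61, 0.44 and 0.44 with saline. The signs of the levels differed between the groups on every array, and the gene was 2.27-fold lower (1.62 to 3.17; log2 difference -1.18, SE 0.213, adjusted p = 0.00933).

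Sult1d1, which sulfates catecholamines, read 2.01, 0.98, 1.86 and 1.14 with doxycycline and 2.45, 2.11, 2.62 and 2.56 with saline. Doxycycline 1 and saline 2 lay close together, and the gene was 1.92-fold lower (1.28 to 2.88; log2 difference -0.94, SE 0.259, adjusted p = 0.0441). The call of Sult1b1 was lost without doxycycline 3 or 4 or saline 1 or 3 (highest adjusted p 0.0615). That of Sult1d1 was lost without any of 6 single arrays (all but doxycycline 1 and saline 2), without saline 2 and 4 together, with normexp background, quantile normalization or a common floor, and with the mean of its probes, of which the second differed by -0.66 (highest adjusted p 0.167).

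No other sulfotransferase was called, although Sult5a1 passed under some of the alternatives, as given below. Sult1a1, the main phenol sulfotransferase, was higher in value by 0.83 (0.14 to 1.53, adjusted p = 0.102, exact permutation p = 0.0571), and its second probe by 0.88. Sult5a1, with 0 of 4 saline arrays well above background, had a log2 difference of 1.27 that missed the threshold (adjusted p = 0.0534), and at the scanner software's background subtraction it gives a bound of at least 1.38-fold. The bound need not hold under other settings, where the log2 difference was 0.53 with normexp background (adjusted p = 0.0358) and 0.31 with a common floor (adjusted p = 0.403). The gene passed with array weights, with no filter on dim probes, with normexp background, without saline 2, and without saline 2 and 4 together. Sult2b1, which sulfates cholesterol and pregnenolone, differed by 0.17 (-0.26 to 0.60, adjusted p = 0.588) and Sult4a1 by -0.28 (-0.84 to 0.28, adjusted p = 0.482). The 6 Sult2a genes, which sulfate steroids and bile acids, and Sult1c1, Sult3a1 and Sult6b1 were not well above background on any array, and Sult1e1, the oestrogen sulfotransferase, on 2 of 8. Over all 13 members that were not tested the measured differences ran from -2.08 to 0.31, beside the lower reading of dim probes on the doxycycline arrays given above.

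Genes for the supply of cofactors were counted in the same way, and the shares over all genes, 8.14% lower and 5.95% higher, are the background of each list that follows. For counts at an unadjusted limma p under 0.05, the background is 3650 lower and 3070 higher of 21362 genes. Of 17 genes for the sulfate donor PAPS and for sulfate handling, 4 were lower and 0 higher (median -0.54; 0 higher also at an unadjusted limma p under 0.05). Papss1, a PAPS synthase, was at 1.84 with doxycycline and 3.42 with saline, 3.0-fold lower (SE 0.139 on the log2 scale, adjusted p = 4.71e-04), its partner Papss2 was 2.30-fold lower (adjusted p = 0.0302), Slc35b2, which carries PAPS into the Golgi, was 1.66-fold lower (adjusted p = 0.0138), and Arsa, a sulfatase, 1.79-fold lower (adjusted p = 0.0261). Of 10 genes for UDP-glucuronic acid and the release of glucuronides, 2 were lower and 0 higher (median -0.20; 1 higher at an unadjusted p under 0.05): Ugdh, which makes UDP-glucuronic acid, was 1.64-fold lower (adjusted p = 0.0257) and Galt 2.40-fold lower (adjusted p = 0.00331).

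Of 24 tested glutathione genes 21 were not called, 2 were lower (8.33%) and 1 was higher (4.17%), shares near those over all genes at the adjusted threshold (median -0.07; 8 lower and 4 higher at an unadjusted limma p under 0.05). Gclc, the catalytic subunit of the rate-limiting enzyme of glutathione synthesis, was 3.12-fold higher (adjusted p = 0.0166). Cbs, which leads homocysteine toward cysteine, was 3.15-fold lower (adjusted p = 8.53e-04) and Ggt1, which breaks down glutathione outside the cell, 2.13-fold lower (adjusted p = 0.0330). Of 11 tested enzymes for other conjugations, 2 were lower and 0 higher (median -0.59; 0 higher also at an unadjusted p under 0.05), namely Acsm3 (2.28-fold, adjusted p = 0.00522) and Mettl7b (2.78-fold, adjusted p = 0.0282).

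Of 14 transporters that export conjugates 10 were not called, 2 were lower and 2 higher (14.3% each; median -0.17). Abcc6 was 5.64-fold lower (adjusted p = 7.18e-04), Abcc4, which exports glucuronides and bile acids, 2.51-fold higher (adjusted p = 0.00552), and Abcg2, which exports sulfate conjugates at the gut surface, 1.84-fold lower (adjusted p = 0.0172). Of 21 tested targets of NRF2, the regulator of antioxidant genes, 4 were higher and 0 lower (median -0.07; 1 lower at an unadjusted p under 0.05), among them Cbr3 (3.73-fold, adjusted p = 6.14e-04), Hmox1 (2.68-fold, adjusted p = 0.0134) and Gclc. The difference was negative for 12 of the 21 targets and positive for 9. The gene of NRF2 itself, Nfe2l2, differed by -1.45 and was not called (adjusted p = 0.0662). The aryl hydrocarbon receptor targets held 2 higher and 1 lower of 6 (median -0.01): Cyp1b1 was 2.86-fold and Tiparp 2.01-fold higher (adjusted p = 0.00544 and 0.0368), and the receptor's repressor Ahrr was 2.34-fold lower (adjusted p = 0.00240), while Cyp1a1 did not pass the filter. Of 26 transcription factors and cofactors known to regulate conjugating genes, 4 were lower and 1 higher (median -0.42). The vitamin D receptor gene Vdr was 2.99-fold lower (adjusted p = 0.00122) and the glucocorticoid receptor gene Nr3c1 2.05-fold lower (adjusted p = 0.00178).

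**Figure D5:**
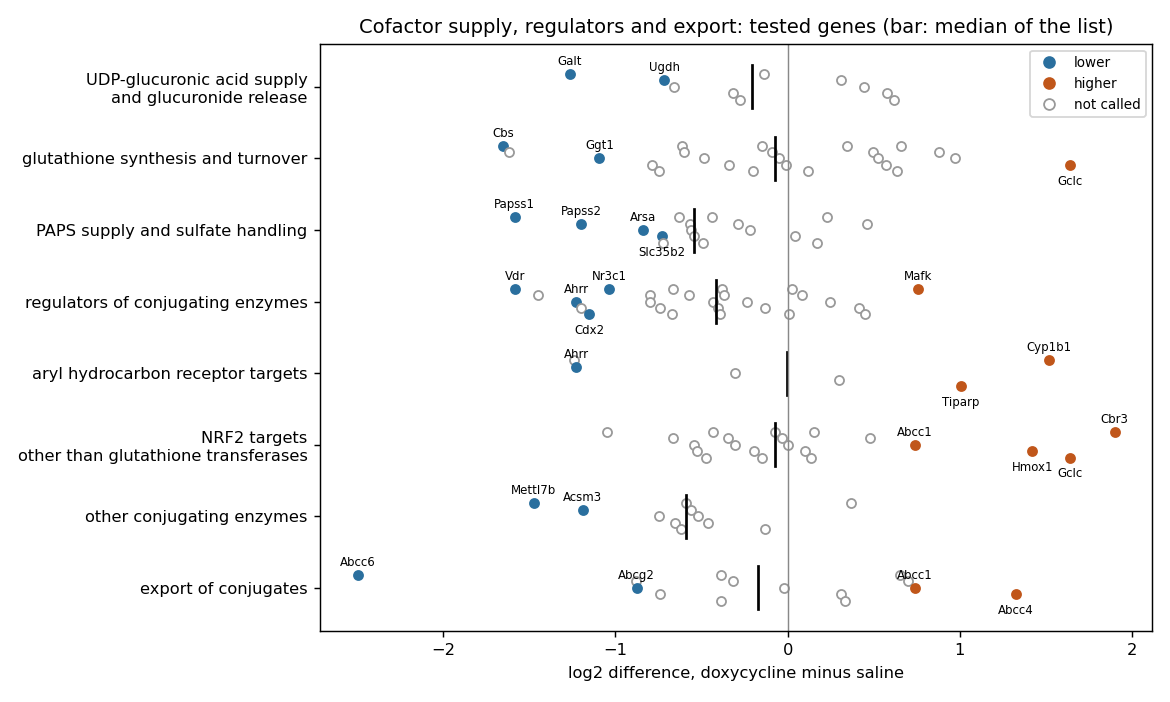
Log2 difference, doxycycline minus saline (x axis), of the tested genes of 8 lists on cofactor supply, regulation, other conjugation and export (y axis); each point is a gene, called genes are filled and named, and black bars are list medians. The medians lie between -0.59 and -0.01, with Abcc6 lowest at -2.49 and Cbr3 highest at 1.90.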

How the data were processed

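Ileum RNA was hybridised to 8 Agilent 1-colour arrays of a single slide, 4 per group. The deposited scanner files give linear intensity per spot, background-subtracted and detrended, per the file headers, by Agilent Feature Extraction 10.7.3.1, which the submitters' processing notes also name. The deposited value table holds log2 values and served as an alternative. For 100% of probes (within 0.01) a column is the scanner's log2 signal shifted by a constant, so scale, direction and the lack of gene centring are known. Its column medians were -3.77, -3.92, -3.83 and -3.81 for doxycycline 1 to 4 and -3.97, -3.70, -3.79 and -3.86 for saline 1 to 4.

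Each array held 62976 spots. Control spots and spots marked as outliers were left out (169 to 259 per array), no probe spot was saturated, and spots of a probe were averaged. The log2 intensity was reduced by the array's 75th percentile. Probes well above background on at least 4 of 8 arrays were kept (28626), and each gene's brightest gave 21362 tested genes. The number of arrays limits the precision. The test was limma's (version 3.58.1, R 4.3.3): lmFit, then eBayes, two-sided, with p-values adjusted after Benjamini and Hochberg across all tested genes and a call under 0.05. The fits were tested on simulated data.

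The members and gene lists were chosen with earlier results of these data known. All called members are named, with the value on every array for up to 4 per family by size of difference. From each list the text names up to 3 called genes by p, and all 4 of the sulfate donor list, the fourth after its values were seen. Where 0 arrays of a group were well above background, a bound is given as at least N-fold: the bright group's mean against, for every dim array, its own level or the lowest level of any probe well above background, whichever is higher. Replicate numbers equal slide columns. Deviations of samples sharing a number were at most weakly correlated (0.01, -0.04, 0.11 and 0.01), so the samples were not taken as pairs. Gene names and probe positions (mm9) are those of the array. Exons and untranslated regions are not given, for want of mm9 transcripts in this work. Promoters are from RefSeq tables (GRCm38.p6), matched by symbol. Alternatives were normexp background, quantile or median normalization, a common floor, other filters and probe rules, array weights, an intensity trend, the deposited table, a replicate block, and arrays left out.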

Additional observations from a re-analysis of the deposited data

Results flagged for a closer look

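Over 78 groups of 4 arrays, 3 held an array that stood far from the others of its group. Chance flags about 1 in 20 such groups. Gstm7 was highest on doxycycline 1, at -3.78 against -4.79 to -4.63 on the other doxycycline arrays. Mgst1 was highest on doxycycline 1, at 5.50 against 5.17 to 5.22. Mgst2 was lowest on saline 2, at 6.35 against 6.62 to 6.66. Gstm7 and Mgst1 were not called, and Mgst2 kept its call without saline 2.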

How the results depend on the processing

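Of the 21 called members, 12 kept their call under all 21 alternatives, 14 under the alternatives that keep all arrays, and none changed sign. The counts of UGT genes moved by less than 1.5 times throughout. Without saline 2 and 4 together, 13 members were lower, 5 of them GST genes, 0 GST genes and 1 SULT gene were higher, and 1054 of all genes were lower. With array weights 2 members were higher, 1 of them a SULT gene, and over all genes 2821 were higher and 3480 lower. With normexp background 2 members were higher, 1 of them a SULT gene, and 2011 of all genes. With a common floor 0 members, hence 0 GST genes, were higher in limma. With no filter on dim probes 31 members were lower, 12 of them SULT genes, 2 were higher, 1 of them a SULT gene, and 11900 of all genes were lower, a setting in which probes without signal count as lower. With 1 array left out, members lower ranged from 12 to 19 and higher from 0 to 2, GST genes lower from 5 to 9 and higher from 0 to 1, SULT genes lower from 1 to 3 and higher from 0 to 1, and all genes lower from 735 to 1987 and higher from 639 to 1462.

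With the replicate block 14 members were lower in place of 20, 6 of them GST genes in place of 10. The calls it ended were those of Gstm6 (adjusted p = 0.0612), Gsto1 (0.0962), Gstt2 (0.102), Gstz1 (0.0529), Sult1d1 (0.0533) and Ugt2a3 (0.0756). Over all genes 770 were higher and 930 lower. The samples share only a number there, which is also the slide column. Dim signal limits Ugt1a6a, Ugt2a3, Sult5a1, Gstm7, Gsto2 and the 13 untested members, and the cause of the differences between alternatives was not tested.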
